A study of Mus musculus with 24 samples.

Results

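The genes described here are 10 members of the Notch pathway and of the secretory cell decision it controls in the intestine. They were taken by name from the 43280 gene symbols of the deposited count table: the receptors Notch1, Notch2 and Notch3, the ligands Dll1, Dll4, Jag1 and Jag2, the target gene Hes1, and the transcription factors Atoh1 and Gfi1. All 10 were found in the table and none was set aside. Their levels were followed across 4 sorted crypt populations and under 2 treatments.

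The mice were 6 males of the C57BL/6 strain, and all of them carried the Lgr5-EGFP reporter. The labels call them littermates but give more than 1 age, so which mice share a litter is not known. In 3 mice, neuregulin 1 (NRG1, a ligand of the ErbB3 and ErbB4 receptors) was injected into the peritoneum at 7.5 µg per dose, 12 h apart, over 5 days, and the other 3 were given PBS, with collection on day 6. In both arms, replicates 1 and 2 came from mice aged 15 weeks and replicate 3 from a mouse aged 11 weeks. Each mouse gave 1 library of each population, which made 24 libraries in 8 groups of 3. The sort used the reporter and the surface protein CD24. The labels call the Lgr5high, CD24low fraction crypt base columnar (CBC) stem cells, the Lgr5med, CD24low fraction immediate progenitors, the Lgr5low, CD24low fraction subsequent progenitors and the Lgr5neg, CD24neg fraction differentiated cells. Cells bearing CD45 or CD31, which mark blood and endothelial cells, had been gated out.

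Notch receptors are activated by ligands on a touching cell, and cleavage then frees the receptor's intracellular part, which acts in the nucleus with RBPJ to switch on genes such as Hes1. Hes1 is a repressor, and Atoh1 is among the genes it holds down. In the intestinal crypt, cells with Notch signal stay stem cells or become absorptive cells, while cells that escape it express Atoh1, enter the goblet, Paneth or enteroendocrine lineages and display Dll1 and Dll4 to their neighbours.

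Libraries held 11176264 to 23343499 counts, of which mitochondrial ribosomal RNA took 37.6% to 62.4%. Its share was 49.5% to 62.4% in the Lgr5neg libraries and 37.6% to 47.1% in the others. CPM is the count scaled to a fixed library total, here after TMM scaling, and a count of 3 corresponded to 0.113 to 0.239 CPM. The summed CPM of 11 stem cell markers lay between 3906 and 5445 in the Lgr5high libraries and between 67.6 and 116 in the Lgr5neg libraries. For 12 enterocyte markers the sum lay between 850 and 1636 in the Lgr5high libraries and between 31561 and 73470 in the Lgr5neg libraries, so both ends of the sort carried the markers of their names. The summed level of 15 immune markers was 67.3 to 428 CPM in the 6 Lgr5neg libraries against 11.1 to 28.6 CPM in the other 18. Of those markers, Ptprc, which encodes CD45, was at 0 in 4 libraries, all of Lgr5high or Lgr5low cells, and had counts in all 6 Lgr5neg libraries. Itgam (8909) and Gzma (6050) had the most counts of the immune list over all libraries. Endothelial markers summed to 2.21 to 6.52 CPM and mesenchymal markers to 0.319 to 3.90 CPM over all libraries. Cdh5, Col3a1 and Lum were at 0 in all 24. The most counts over all libraries were 654 for Esam in the endothelial list and 581 for Pdgfrb in the mesenchymal list.

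Most members followed 1 of 2 opposite patterns. Notch1, Notch2 and Hes1 were highest in Lgr5high cells and lower at each step through Lgr5med and Lgr5low to Lgr5neg cells in all 6 mice. Dll1, Dll4, Atoh1 and Gfi1 were low in Lgr5high cells, rose in Lgr5med and Lgr5low cells and were low again in Lgr5neg cells. Jag1 varied by less than these, and Notch3 and Jag2 were near the limit of detection. For NRG1 against PBS no member passed the test in any of the 4 populations.

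**Figure D1:**
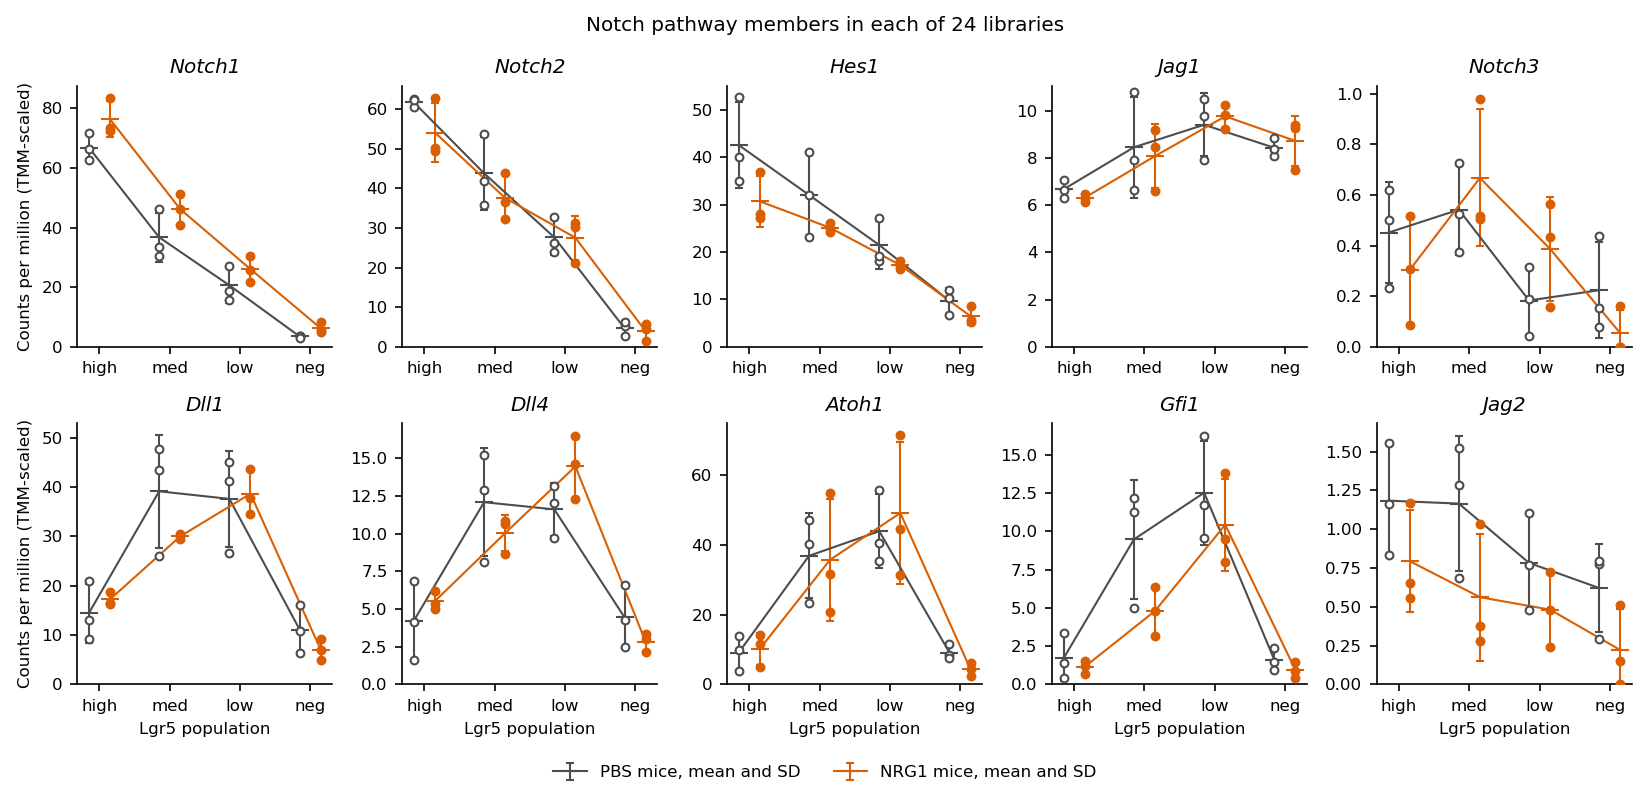
Level of each member in each of the 24 libraries (points), with the mean and SD of the 3 libraries of a group and a line joining the means, in TMM-scaled CPM on a linear axis from 0 with its own range per gene. Notch1, Notch2 and Hes1 descended from Lgr5high to Lgr5neg cells, whereas Dll1, Dll4, Atoh1 and Gfi1 peaked in Lgr5med or Lgr5low cells, in PBS (open points) and NRG1 (filled points) mice.

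The populations were compared within each treatment on 12 libraries with edgeR's quasi-likelihood test. A gene was called at a Benjamini-Hochberg adjusted p under 0.05 over all genes tested. This main fit had no term for the mouse, although the 4 populations come from the same mice, and the mouse entered as a block in an alternative. In PBS mice, Lgr5high against Lgr5med cells gave calls for 5 of the 10 members, where 9.17% of all genes tested were called. Of these, 1 was higher in Lgr5high (2.44% of all genes) and 4 were lower (6.72%). For Lgr5high against Lgr5low cells 7 members were called beside 33.2% of all genes, 3 of them higher (14.1%) and 4 lower (19.1%). Lgr5med against Lgr5low cells gave 1 member, higher in Lgr5med, beside 7.59%. The comparisons with Lgr5neg cells called most of the transcriptome. Their count of 3 members for Lgr5high was below that background (67.4% of all genes). The counts of 7 for Lgr5med (63.2%) and 7 for Lgr5low (55.8%) were somewhat above it. All members called were lower in Lgr5neg cells. Of all genes, 35.4% were called higher in Lgr5high and 30.6% higher in Lgr5low than in Lgr5neg cells. In NRG1 mice the counts were 4 for Lgr5high against Lgr5med (3.11% of all genes), with 1 higher (0.594%) and 3 lower (2.52%), 8 for Lgr5high against Lgr5low (24%), with 3 higher (8.55%) and 5 lower (15.5%), and 1 for Lgr5med against Lgr5low (4.72%). Against Lgr5neg cells they were 6 for Lgr5high (65.5%), 8 for Lgr5med (63.7%) and 8 for Lgr5low (57.0%). Groups of 3 libraries that do not overlap were common. In PBS mice this held for 30.4% of all genes tested between Lgr5high and Lgr5med, 46.6% between Lgr5high and Lgr5low, 28.6% between Lgr5med and Lgr5low, 68.2% between Lgr5med and Lgr5neg and 59.9% between Lgr5low and Lgr5neg cells. In NRG1 mice it held for 24.3%, 26.0% and 61.0% at the 3 neighbouring steps. These are bulk libraries, in which fewer cells of a type and less RNA per cell cannot be told apart. The step to Lgr5neg cells changes the Lgr5 gate and the CD24 gate at once, so these cannot be told apart either.

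Notch1, the receptor gene on chromosome 2 (26457903 to 26516663, minus strand, GRCm38), stood at 71.6, 62.7 and 66.2 CPM in the Lgr5high libraries of the PBS mice. It was at 46.2, 33.5 and 30.6 CPM in Lgr5med, at 27.3, 18.8 and 15.8 CPM in Lgr5low, and fell to 3.65, 3.73 and 3.09 CPM in Lgr5neg cells. No library of a population overlapped with those of the next. The step from Lgr5high to Lgr5med was a log2 difference of 0.86 (SE 0.18, adjusted p = 0.00547), that from Lgr5med to Lgr5low 0.84 (SE 0.19, adjusted p = 0.00851) and that from Lgr5low to Lgr5neg 2.48 (SE 0.22, adjusted p = 2.02e-08). From end to end Notch1 was 18.1-fold higher in Lgr5high than in Lgr5neg cells. In NRG1 mice the values were 83.5, 73.3 and 72.4 CPM in Lgr5high, 51.3, 46.4 and 40.8 CPM in Lgr5med, 25.8, 30.5 and 21.9 CPM in Lgr5low, then 4.87, 5.59 and 8.25 CPM in Lgr5neg cells. The same 3 steps were called there, at log2 differences of 0.70 (adjusted p = 0.0257), 0.80 (adjusted p = 0.0118) and 2.01 (adjusted p = 1.08e-07), and the order of the 4 populations was the same in 6 of 6 mice. The middle step lost its call in PBS mice without Lgr5med replicate 1 (adjusted p = 0.0780) or Lgr5low replicate 3 (0.0543), and in NRG1 mice without Lgr5med replicate 1 (0.0680) or Lgr5low replicate 3 (0.0774). In NRG1 mice the first step was not called without Lgr5high replicates 1 (0.153), 2 (0.0548) or 3 (0.0737) or Lgr5med replicates 2 (0.0972) or 3 (0.148). With the mice aged 15 weeks alone neither step was called, at 0.132 and 0.0843 in PBS and 0.111 and 0.0540 in NRG1 mice for the first and the middle step.

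Notch2 (chromosome 3, 98013527 to 98150361), the other receptor measured at an appreciable level, followed the same order. In PBS mice it stood at 62.4, 60.5 and 62.2 CPM in Lgr5high, 53.8, 35.7 and 41.9 CPM in Lgr5med, 32.7, 26.2 and 23.98 CPM in Lgr5low, then 2.70, 5.20 and 6.19 CPM in Lgr5neg cells. The groups did not overlap, yet the steps from Lgr5high to Lgr5med (log2 difference 0.49, SE 0.20, adjusted p = 0.151) and from Lgr5med to Lgr5low (0.67, SE 0.20, adjusted p = 0.0509) missed the threshold. With the mouse as a block the latter was called at 0.66 (adjusted p = 0.0421, with 10.7% of all genes called), as it was without Lgr5med replicate 2 (adjusted p = 0.0411) or Lgr5low replicate 1 (0.0463). The excess of Lgr5low over Lgr5neg cells was a log2 difference of 2.48 (SE 0.23, adjusted p = 6.11e-08), and Lgr5high exceeded Lgr5neg cells 12.5-fold. In NRG1 mice the values were 62.7, 49.5 and 50.1 CPM in Lgr5high, 44.0, 36.5 and 32.3 CPM in Lgr5med, 30.2, 31.3 and 21.1 CPM in Lgr5low, then 1.52, 5.85 and 4.42 CPM in Lgr5neg cells. The difference between Lgr5high and Lgr5low cells was called in both arms, at 1.16 in PBS mice (adjusted p = 0.000253) and 0.92 in NRG1 mice (adjusted p = 0.0264). That NRG1 call was lost without Lgr5high replicates 1 (0.0982) or 3 (0.0509) or Lgr5low replicate 3 (0.0858), and with the mice aged 15 weeks alone (0.180). Lgr5high was above Lgr5med, Lgr5med above Lgr5low and Lgr5low above Lgr5neg cells in 6 of 6 mice each.

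Notch3 (chromosome 17, 32120820 to 32166852), the receptor best known from vascular muscle and pericytes, had 182 counts over all 24 libraries. Its counts were 5, 16 and 11 in the Lgr5high and 16, 9 and 11 in the Lgr5med libraries of PBS mice, and 2, 0 and 0 in the Lgr5neg libraries of NRG1 mice. At this depth levels of 0 to 0.980 CPM were near the floor, and no fold is given. The test called Notch3 higher in Lgr5med (adjusted p = 0.00667) and Lgr5low cells (adjusted p = 0.0369) than in Lgr5neg cells of NRG1 mice. The Lgr5low call ended without Lgr5low replicates 2 (0.134) or 3 (0.0681) or Lgr5neg replicates 2 (0.128) or 3 (0.117), and with the mice aged 15 weeks alone (0.151). Reads over Notch3 could not be separated from its antisense partner Gm17276, since the strand setting of the counting was not given, and that gene had 26 counts.

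Dll1, the Delta ligand (chromosome 17, 15367354 to 15376872, minus strand), stood at 9.22, 21.0 and 13.1 CPM in the Lgr5high libraries of PBS mice. It reached 26.1, 47.8 and 43.6 CPM in Lgr5med and 26.6, 41.2 and 45.1 CPM in Lgr5low cells, and was at 16.1, 10.9 and 6.42 CPM in Lgr5neg cells. Lgr5med and Lgr5low libraries interleaved, and all of them lay above every Lgr5high and Lgr5neg library. Dll1 was lower in Lgr5high than in Lgr5med cells by a log2 difference of -1.44 (SE 0.38, adjusted p = 0.0371) and higher in Lgr5low than in Lgr5neg cells by 1.67 (SE 0.39, adjusted p = 0.00351). The latter call was lost with the mice aged 15 weeks alone (1.26, adjusted p = 0.0502). Between Lgr5med and Lgr5low cells the estimate was 0.06 (95% interval -0.74 to 0.86, adjusted p = 0.948). In NRG1 mice the values were 18.8, 16.6 and 16.4 CPM in Lgr5high, 29.6, 30.0 and 30.4 CPM in Lgr5med, 34.6, 37.8 and 43.6 CPM in Lgr5low, then 9.18, 6.94 and 4.94 CPM in Lgr5neg cells. Their Lgr5high to Lgr5med difference was -0.82 (SE 0.17, adjusted p = 0.0136) and their Lgr5low to Lgr5neg difference 2.41 (SE 0.19, adjusted p = 1.25e-08).

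Dll4 (chromosome 2, 119325784 to 119335962), the second Delta ligand, was at 1.62, 6.87 and 4.15 CPM in Lgr5high, 8.15, 15.2 and 12.9 CPM in Lgr5med, 9.70, 12.0 and 13.1 CPM in Lgr5low, then 6.57, 2.48 and 4.28 CPM in Lgr5neg cells of PBS mice. As for Dll1, both progenitor populations lay above the other 2 without overlap. The ligand was lower in Lgr5high than in Lgr5med cells by -1.51 (SE 0.42, adjusted p = 0.0411) and higher in Lgr5low than in Lgr5neg cells by 1.30 (SE 0.44, adjusted p = 0.0218). In NRG1 mice it was at 5.03, 5.34 and 6.19 CPM in Lgr5high, 8.66, 10.8 and 10.6 CPM in Lgr5med, 12.3, 14.7 and 16.5 CPM in Lgr5low, then 3.03, 2.12 and 3.31 CPM in Lgr5neg cells, with log2 differences of -0.89 (SE 0.20, adjusted p = 0.0199) and 2.30 (SE 0.22, adjusted p = 1.39e-07) for the same steps. The PBS call between Lgr5low and Lgr5neg cells was lost without Lgr5low replicates 2 (0.0514) or 3 (0.0589) or Lgr5neg replicates 2 (0.0813) or 3 (0.0664), and with the mice aged 15 weeks alone (0.194). In NRG1 mice Dll4 also differed between the ends, at 0.87 higher in Lgr5high than in Lgr5neg cells (adjusted p = 0.00224), as did Dll1 at 1.19 (adjusted p = 2.12e-05). In PBS mice the ends differed by -0.15 for Dll4 (adjusted p = 0.788) and 0.30 for Dll1 (adjusted p = 0.518). Whether the arms differ in this is given with the tests of the NRG1 response. Antisense genes lie over both ligands: Gm14207 had 822 counts, or 20.5% of the 4001 of Dll4, and A930024N18Rik had 1167, or 9.63% of the 12118 of Dll1.

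Jag1 (chromosome 2, 137081456 to 137116644), a ligand of the Jagged class, ranged only from 6.15 to 10.8 CPM over all 24 libraries. Its means in PBS mice were 6.68 ± 0.394 CPM in Lgr5high, 8.46 ± 2.15 CPM in Lgr5med, 9.41 ± 1.33 CPM in Lgr5low, with 8.44 ± 0.381 CPM in Lgr5neg cells (SD, n = 3). In TMM-scaled CPM, Lgr5high was the lowest population in 6 of 6 mice against each of the others. By the test this passed only in NRG1 mice, at -0.67 against Lgr5low (SE 0.19, adjusted p = 0.0131) and -0.57 against Lgr5neg cells (SE 0.19, adjusted p = 0.0130), while the PBS values were -0.49 (adjusted p = 0.0698) and -0.42 (adjusted p = 0.0861). The call against Lgr5low was lost without Lgr5high NRG1 replicate 3 (0.0501) or Lgr5low NRG1 replicate 3 (0.0584) or with the mice aged 15 weeks alone (0.111). The call against Lgr5neg cells was lost without the filter on low counts (-0.51, adjusted p = 0.0687). The order against Lgr5neg cells rests on the scaling, with TMM factors of 1.10 to 1.23 in Lgr5high and 0.543 to 0.776 in Lgr5neg libraries. As a share of all counts, Jag1 was higher in Lgr5high than in Lgr5neg cells of every mouse. In PBS replicate 1, for example, it had 144 of 19570668 counts in Lgr5high and 121 of 23240804 in Lgr5neg cells. Jag2 (chromosome 12, 112907819 to 112929776), the other Jagged ligand, had 366 counts in all and 0 to 1.55 CPM, and no comparison called it.

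Hes1 (chromosome 16, 30064384 to 30067796), the Notch target, was at 52.6, 35.0 and 40.0 CPM in Lgr5high, 41.0, 23.1 and 32.0 CPM in Lgr5med, 27.2, 18.1 and 19.1 CPM in Lgr5low, then 12.0, 6.75 and 10.3 CPM in Lgr5neg cells of PBS mice. Neighbouring populations overlapped, except that every Lgr5low library was above every Lgr5neg library. Within each mouse the order was strict, with each population above the next in 6 of 6 mice. Hes1 was higher in Lgr5high than in Lgr5low cells by 0.99 (SE 0.24, adjusted p = 0.00395) and in Lgr5low than in Lgr5neg cells by 1.06 (SE 0.25, adjusted p = 0.00171). The former was not called with the mice aged 15 weeks alone (0.94, adjusted p = 0.0954). The step from Lgr5high to Lgr5med was 0.41 (SE 0.23, adjusted p = 0.343) and that from Lgr5med to Lgr5low 0.58 (SE 0.24, adjusted p = 0.162). With the mouse as a block these 2 steps were called, at 0.42 (adjusted p = 0.0408, with 12.4% of all genes called) and 0.57 (adjusted p = 0.00938). In NRG1 mice Hes1 stood at 27.1, 28.0 and 36.9 CPM in Lgr5high, 24.3, 24.9 and 26.1 CPM in Lgr5med, 16.5, 17.1 and 18.1 CPM in Lgr5low, then 5.27, 5.59 and 8.54 CPM in Lgr5neg cells. There the groups did not overlap, and the differences of Lgr5high from Lgr5low (0.78, SE 0.17, adjusted p = 0.00288) and of Lgr5low from Lgr5neg (1.36, SE 0.19, adjusted p = 9.17e-06) were called. The Lgr5med to Lgr5low step of 0.52 (adjusted p = 0.103) was called with the mouse as a block, at 0.52 (adjusted p = 0.0259, with 8.85% of all genes called).

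**Figure D2:**
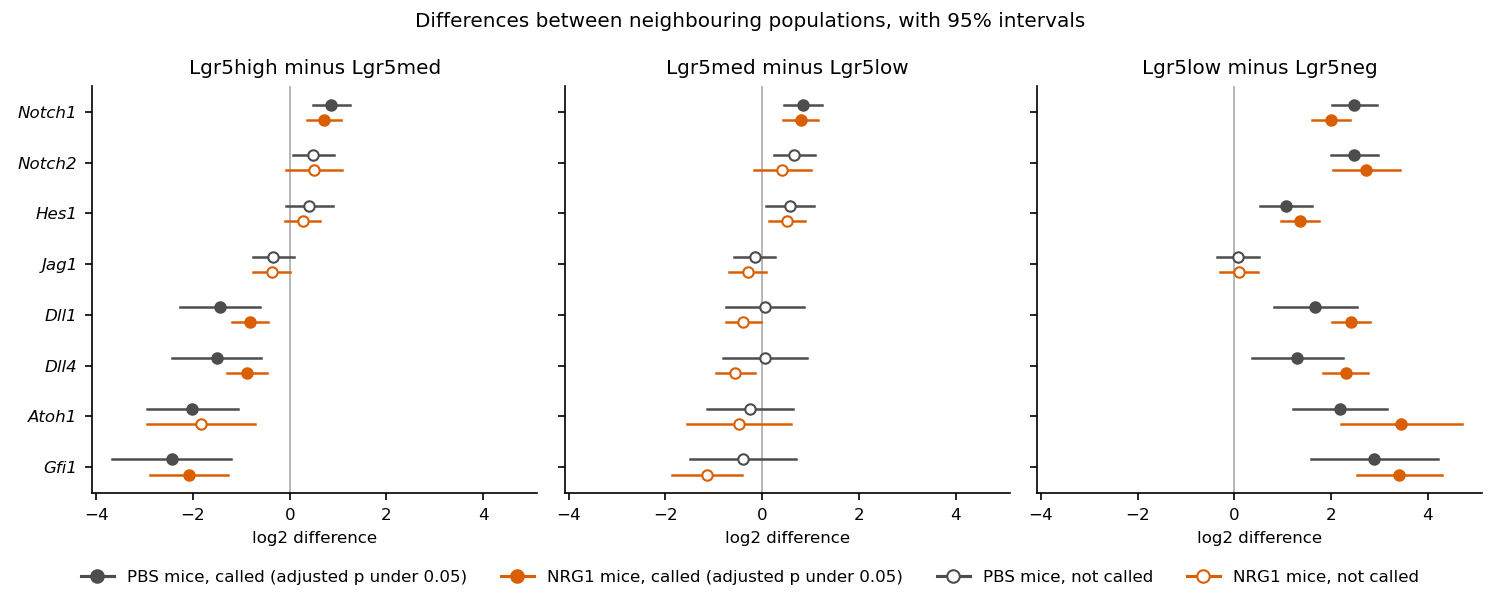
Log2 differences between neighbouring populations for 8 members in PBS (grey) and NRG1 (orange) mice, with 95% intervals and filled points for adjusted p under 0.05. Notch1 was called at all 3 steps in both arms, and Dll1, Dll4, Atoh1 and Gfi1 had negative differences at the first step and positive ones at the last.

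Atoh1 (chromosome 6, 64729125 to 64731245), the transcription factor that commits cells to the secretory lineages, was at 3.70, 13.9 and 9.77 CPM in Lgr5high cells of PBS mice. Values of 23.4, 40.2 and 47.1 CPM in Lgr5med and 35.5, 40.7 and 55.8 CPM in Lgr5low cells were followed by 8.39, 11.5 and 7.45 CPM in Lgr5neg cells. Again both progenitor populations lay above the ends without overlap. Lgr5high cells had 4.03-fold less Atoh1 than Lgr5med cells (log2 difference -2.01, SE 0.42, adjusted p = 0.0141) and Lgr5low cells 4.55-fold more than Lgr5neg cells (2.19, SE 0.43, adjusted p = 0.00145). NRG1 mice had 5.03, 11.4 and 14.1 CPM in Lgr5high, 20.7, 31.8 and 54.9 CPM in Lgr5med, 31.5, 44.7 and 71.5 CPM in Lgr5low, then 2.39, 4.37 and 6.11 CPM in Lgr5neg cells. In these mice the Lgr5high to Lgr5med difference of -1.84 missed the threshold (SE 0.50, adjusted p = 0.0923) and was called with the mouse as a block, at -1.83 (adjusted p = 3.66e-07, with 6.38% of all genes called). It was also called by DESeq2 (-1.79, adjusted p = 0.0155) and by edgeR without the filter on low counts (-1.83, adjusted p = 2.70e-20). All these fits used the same libraries and gave nearly the same difference. Their p-values thus depend on how each fit estimates the spread, and the calls are not separate evidence. Lgr5high was below Lgr5med, and Lgr5med below Lgr5low, in 6 of 6 mice. The latter difference was called only in NRG1 mice with the mouse as a block, at -0.51 (adjusted p = 0.0260). In the same mice the excess of Lgr5high over Lgr5neg cells, 1.13 (SE 0.55, adjusted p = 0.0940), was called with the block at the same rounded value (adjusted p = 9.28e-06, with 68.7% of all genes called) and without Lgr5high replicate 1 (adjusted p = 0.0284). DESeq2 called it (adjusted p = 0.0460), as did edgeR without the filter on low counts (2.77e-08). EdgeR also called it with the mice aged 15 weeks alone (0.0481) and with only the 6 libraries compared (0.0264). These fits draw on the same libraries, so they are not separate evidence either.

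Gfi1 (chromosome 5, 107716657 to 107726036, minus strand), a repressor that acts downstream of Atoh1 in goblet and Paneth cells, was at 0.417, 3.34 and 1.37 CPM in Lgr5high, 5.01, 12.1 and 11.3 CPM in Lgr5med, 9.57, 11.7 and 16.2 CPM in Lgr5low, then 1.46, 0.931 and 2.38 CPM in Lgr5neg cells of PBS mice. Between Lgr5high and Lgr5low cells it had the widest fold of the 8 members for which folds are given, 7.15-fold less in Lgr5high (log2 difference -2.84, SE 0.56, adjusted p = 0.00223, and 0.0544 with the mice aged 15 weeks alone). The step from Lgr5high to Lgr5med was -2.44 (SE 0.56, adjusted p = 0.0181) and that from Lgr5low to Lgr5neg 2.89 (SE 0.60, adjusted p = 0.00140). In NRG1 mice it stood at 0.688, 1.23 and 1.52 CPM in Lgr5high, 3.18, 4.82 and 6.38 CPM in Lgr5med, 9.49, 8.003 and 13.8 CPM in Lgr5low, then 0.399, 0.900 and 1.47 CPM in Lgr5neg cells. All 3 Lgr5low libraries were above all Lgr5med libraries there, at a log2 difference of -1.14 for Lgr5med against Lgr5low (SE 0.35, adjusted p = 0.0700) that the mouse block called at -1.17 (adjusted p = 0.00620). Gfi1 is also made by immune cells, and the immune marker sum was highest in the Lgr5neg libraries. The part of that sum in the Lgr5neg levels was not tested.

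The 4 members with the arch-shaped pattern had PBS calls between Lgr5high and Lgr5med cells that rested on few libraries. For Dll1 the adjusted p was 0.115 without Lgr5high replicate 1, 0.140 without Lgr5high replicate 3, 0.134 without Lgr5med replicate 2 and 0.124 without Lgr5med replicate 3, and for Dll4 it was 0.0673, 0.141, 0.152 and 0.130. Without Lgr5high replicate 3 and Lgr5med replicates 2 and 3 in turn it was 0.0613, 0.0559 and 0.0554 for Atoh1 and 0.0894, 0.0704 and 0.0686 for Gfi1. With the mice aged 15 weeks alone the adjusted p was 0.260 for Dll1, 0.445 for Dll4, 0.227 for Atoh1 and 0.271 for Gfi1, and with only the 6 libraries compared 0.0592, 0.112, 0.0913 and 0.0890. Dll1 also lost the call without the filter on low counts (0.0633). Their direction stayed the same each time, and 6 of 6 mice had the lower value in Lgr5high cells. In NRG1 mice Dll1 lost the call without Lgr5high replicates 1 (0.0503) or 3 (0.0759) or Lgr5med replicate 3 (0.0604), and Gfi1 without Lgr5high replicate 1 (0.05004). Dll4 lost it there without Lgr5high replicates 1 (0.119), 2 (0.0598) or 3 (0.0563) or Lgr5med replicates 2 (0.0826) or 3 (0.0919). With the mice aged 15 weeks alone the NRG1 values were 0.123 for Dll1, 0.190 for Dll4 and 0.0693 for Gfi1. Markers of goblet and of enteroendocrine cells were, like these 4 genes, lower in Lgr5high than in Lgr5med and Lgr5low cells. Those of Paneth cells did not share the low level in Lgr5high cells. Unlike the 4 genes, the goblet sum of every Lgr5neg library was above that of every Lgr5high library in PBS mice. The 11 goblet markers, of which Retnlb alone had counts of 0 (in 7 libraries), summed to 536, 2144 and 951 CPM in Lgr5high, 5958, 14649 and 16899 CPM in Lgr5med, 14995, 23225 and 27700 CPM in Lgr5low, then 4999, 6848 and 5497 CPM in Lgr5neg cells of PBS mice. Replicate 1 of Lgr5high and of Lgr5med was the lowest of its group in that sum and in all 4 genes, and the highest of its group in Hes1. The 16 enteroendocrine markers summed to 39.1, 176 and 69.1 CPM in Lgr5high, 256, 581 and 649 CPM in Lgr5med, 354, 908 and 1373 CPM in Lgr5low, then 65.8, 223 and 74.5 CPM in Lgr5neg cells of PBS mice. Of these, Chga and Chgb had counts in all 24 libraries, and Sst was at 0 in 10. In PBS mice the 10 Paneth markers summed to 2998, 3272 and 1857 CPM in Lgr5high and 1078, 3290 and 1554 CPM in Lgr5med cells. Their sums were 914, 4511 and 3921 CPM in Lgr5low and 292, 624 and 646 CPM in Lgr5neg cells. The part of goblet and enteroendocrine cell content in the differences was not tested.

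The start sites of these 4 genes are shown because their levels moved together across the populations. The windows are the 250 bases before the outermost RefSeq start, read 5′ to 3′ on the gene's strand (RefSeq, GRCm38.p6): chr17:15376933-15377182 (minus strand) for Dll1, chr2:119325534-119325783 (plus strand) for Dll4, chr6:64728875-64729124 (plus strand) for Atoh1 and chr5:107725806-107726055 (minus strand) for Gfi1. Capitals mark each match to CANNTG, the core of the site bound by basic helix-loop-helix factors such as Atoh1.

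Dll1: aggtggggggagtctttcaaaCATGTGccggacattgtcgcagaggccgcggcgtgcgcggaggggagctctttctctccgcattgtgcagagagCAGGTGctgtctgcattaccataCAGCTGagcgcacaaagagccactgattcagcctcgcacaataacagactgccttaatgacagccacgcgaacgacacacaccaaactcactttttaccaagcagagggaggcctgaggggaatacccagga
Dll4: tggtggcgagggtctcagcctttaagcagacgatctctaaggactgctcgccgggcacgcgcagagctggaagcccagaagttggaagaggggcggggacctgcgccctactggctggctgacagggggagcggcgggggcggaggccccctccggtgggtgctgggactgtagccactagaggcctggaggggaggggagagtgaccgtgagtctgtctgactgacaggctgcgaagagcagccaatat
Atoh1: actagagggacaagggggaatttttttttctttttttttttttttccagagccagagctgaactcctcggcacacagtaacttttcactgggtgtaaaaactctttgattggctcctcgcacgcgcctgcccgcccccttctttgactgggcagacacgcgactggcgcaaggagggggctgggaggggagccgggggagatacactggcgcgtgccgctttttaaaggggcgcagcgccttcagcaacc
Gfi1: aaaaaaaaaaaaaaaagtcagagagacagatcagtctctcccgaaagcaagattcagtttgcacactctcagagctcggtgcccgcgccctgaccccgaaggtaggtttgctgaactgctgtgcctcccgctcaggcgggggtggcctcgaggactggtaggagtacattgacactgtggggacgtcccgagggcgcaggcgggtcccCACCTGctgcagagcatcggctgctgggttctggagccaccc

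The Dll1 window held 3 matches. The first base of CATGTG lies 229 bases before the start, that of CAGGTG 155 and that of CAGCTG 132. Gfi1 held 1 match, CACCTG at 42 bases before the start, and the windows of Dll4 and Atoh1 held none. Over 32851 RefSeq windows of 250 bases, 66.2% held at least 1 CANNTG on either strand, so that a match is common. The CAGCTG form, itself a case of CANNTG, was in 13.0%. TGGGAA, the core of the RBPJ site, was in none of the windows of the 9 members that had one and in 21.6% of all windows, searched on both strands. The member without a window was Hes1, the Notch target, so its promoter was not searched. CACNAG, the N-box bound by HES proteins, was in 1 place in the Dll4 window and in none of the other 3 shown, against 36.7% of all windows. These are matches of letters, not measured sites, and their absence from 250 bases says nothing about binding elsewhere.

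Levels of different genes were compared per kilobase of exon. In Lgr5high cells of PBS mice Hes1 was the most abundant member at 20.9 ± 4.45 CPM per kb, followed by Notch2 at 5.72 ± 0.0980, Notch1 at 4.70 ± 0.318, Atoh1 at 4.30 ± 2.41 and Dll1 at 3.42 ± 1.42 CPM per kb (SD, n = 3). In Lgr5low cells Atoh1 led at 20.7 ± 4.98 CPM per kb, with Hes1 at 10.5 ± 2.45, Dll1 at 8.92 ± 2.31, Gfi1 at 3.93 ± 1.07 and Dll4 at 3.02 ± 0.455. The receptors Notch2 and Notch1 were below all of these there, at 2.56 ± 0.421 and 1.45 ± 0.419 CPM per kb. In Lgr5neg cells Hes1 at 4.76 ± 1.32 and Atoh1 at 4.30 ± 0.994 CPM per kb lay within each other's spread. Lengths were those of all exons joined. With the longest transcript instead, Notch1 ranked above Notch2 in Lgr5high cells and above Jag1 in Lgr5low cells, and the other ranks just given were the same.

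Atoh1 relative to Hes1 within a library needs no scaling between libraries. In the 6 Lgr5high libraries there were 7.04 to 40.8 Atoh1 counts per 100 Hes1 counts, in the Lgr5med libraries 57.2 to 210, in the Lgr5low libraries 131 to 394 and in the Lgr5neg libraries 45.5 to 170. Every Lgr5med library exceeded every Lgr5high library. The lowest value was that of PBS replicate 1 in Lgr5high cells, which had 80 Atoh1 and 1136 Hes1 counts, and the highest that of NRG1 replicate 3 in Lgr5low cells, with 985 and 250. Values of the PBS and NRG1 libraries overlapped in all 4 populations.

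**Figure D3:**
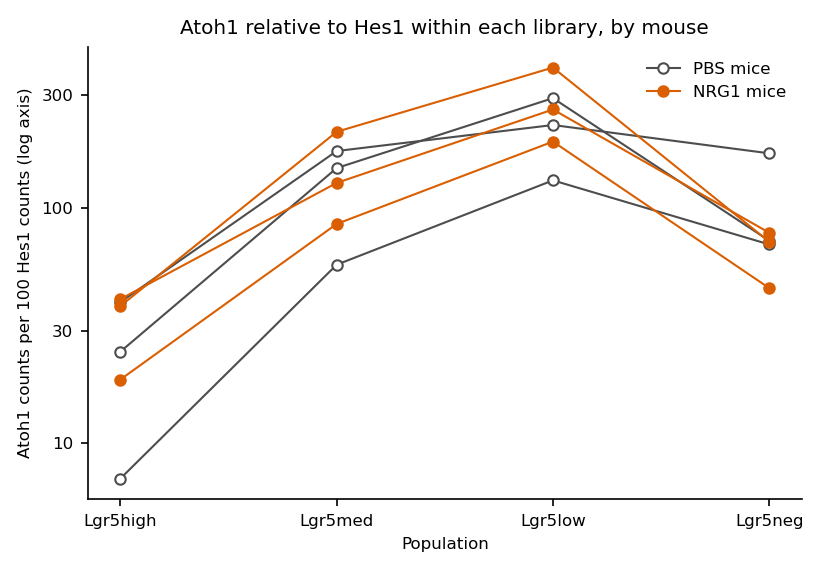
Atoh1 counts per 100 Hes1 counts in each library on a log axis, with a line joining the 4 populations of a mouse (open points PBS, filled points NRG1). Each of the 6 lines rose from Lgr5high through Lgr5med to Lgr5low cells and dropped to Lgr5neg cells, from a lowest value of 7.04 to a highest of 394.

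Other genes of the pathway were grouped by role into 7 lists with 93 entries. In PBS mice most factors of secretory lineages were lower in Lgr5high than in Lgr5med cells, as Atoh1 and Gfi1 were. Between Lgr5high and Lgr5med cells of PBS mice, 13 of the 20 such factors tested were lower in Lgr5high and 1 was higher (6.72% and 2.44% of all genes), with a median log2 difference of -2.19 against 0.00 over all genes. Neurod1 and Rfx6, factors of enteroendocrine cells, were lower by -3.15 (SE 0.58, adjusted p = 0.00215) and -2.65 (SE 0.58, adjusted p = 0.00709). Sox9, a factor of stem and Paneth cells, was the 1 that was higher, by 0.88 (SE 0.20, adjusted p = 0.00970). In NRG1 mice 10 of the 20 were lower and 0 higher (2.52% and 0.594% of all genes), so Sox9 was not called there. Between Lgr5low and Lgr5neg cells of PBS mice 18 of the 20 were higher in Lgr5low and none lower (median 3.39, all genes 0.11). Of all genes 30.6% were called higher there and 25.3% lower. Neurog3, which starts the enteroendocrine lineage, was at 3.12 ± 0.541 CPM in Lgr5low against 0.0264 ± 0.0458 CPM in Lgr5neg cells (adjusted p = 1.30e-07), and Sox4 at 6.92 ± 1.70 against 0.125 ± 0.0811 CPM (adjusted p = 3.32e-09). Both mean levels in Lgr5neg cells lie below the 3-count floor, so no fold is given. Sox4 did not share the low level in Lgr5high cells. It was higher in Lgr5high than in Lgr5low cells by 1.46 in PBS (adjusted p = 8.74e-05) and 1.13 in NRG1 mice (adjusted p = 0.000419), and higher in Lgr5med than in Lgr5low cells by 0.93 (adjusted p = 0.0179) and 0.76 (adjusted p = 0.0331). Klf4, a factor of goblet and surface cells, was lower in Lgr5high than in Lgr5neg cells by -3.33 (SE 0.37, adjusted p = 9.75e-06). Between these populations of PBS mice it was the 1 factor called lower, and 10 of the 20 were called higher in Lgr5high. The median there was 1.82 against 0.09 over all genes, of which 32.0% were called lower and 35.4% higher.

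Few genes that process the signal were called between Lgr5high and Lgr5med cells of PBS mice. In NRG1 mice the same comparison called no gene of the 7 lists other than 10 secretory lineage factors. Of 5 further receptors and ligands 1 could be tested, and it was not called. Of 8 glycosylation genes none was called, and of 21 nuclear complex genes none. Of 14 ubiquitin and trafficking genes, Dtx4, a Deltex ubiquitin ligase, was higher in Lgr5high by 0.80 (adjusted p = 0.00578). In the HES, HEY and Nrarp list, with 3 genes tested, Hes2 was lower, from 0.677 ± 0.255 CPM in Lgr5med to 0.113 ± 0.0584 CPM in Lgr5high cells (adjusted p = 0.00766), the latter below the floor. Between Lgr5high and Lgr5neg cells of PBS mice 6 of 8 glycosylation genes were higher in Lgr5high and 1 was lower. In the same comparison 5 of 9 cleavage genes were lower with none higher. Of all genes 67.4% were called there (35.4% higher, 32.0% lower), so the share of cleavage genes called was below the background. Lfng, the Fringe enzyme that modifies Notch receptors, stood at 13.1 ± 2.39 against 1.30 ± 1.03 CPM (log2 difference 3.24), and its relative Rfng went the other way, at 4.50 ± 0.490 against 18.7 ± 3.43 CPM (-2.13). Numb, an inhibitor of Notch, was lower in Lgr5high than in Lgr5neg cells by -1.55 and Furin, the convertase that matures the receptors, by -1.42. The nuclear complex list held 10 higher and 4 lower of 21, a share called that is near the background of 67.4%. The largest differences were those of the acetyltransferase Kat2a (2.45) and the deacetylase Hdac2 (1.76) on one side and the corepressors Aes (-1.61) and Tle4 (-1.38) on the other.

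**Figure D4:**
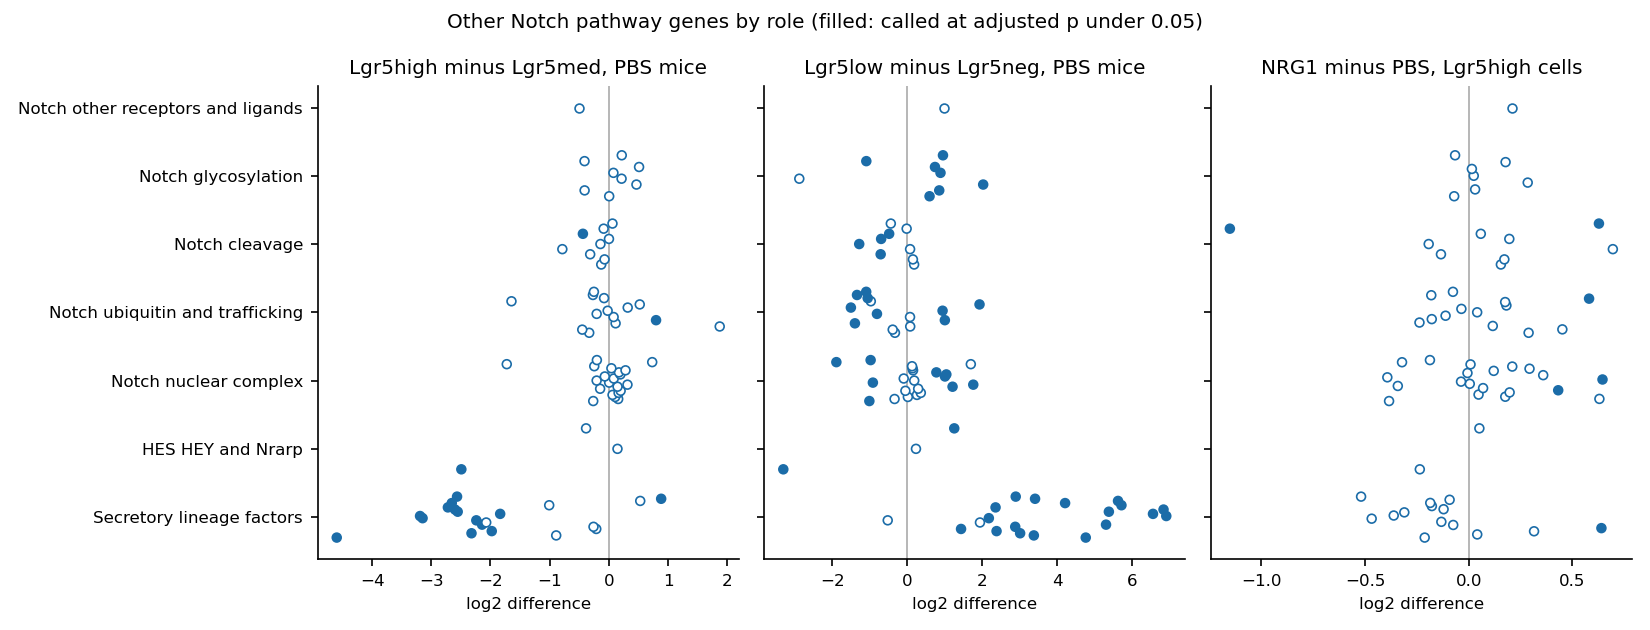
Log2 differences of the other pathway genes by role in Lgr5high against Lgr5med cells and in Lgr5low against Lgr5neg cells of PBS mice, and in NRG1 against PBS Lgr5high cells. Each panel has its own axis, and filled points mark adjusted p under 0.05. Of the secretory lineage factors, 13 of 20 were below their Lgr5med level in Lgr5high cells and 18 of 20 above their Lgr5neg level in Lgr5low cells, while NRG1 called 6 pathway genes in Lgr5high cells.

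The effect of NRG1 was then tested in each population, with 3 libraries per arm. No member was called: 0 of 10 tested in Lgr5high, where 7.33% of all genes were called, 0 of 10 in Lgr5med (9.55%), 0 of 9 in Lgr5low (0.443%) and 0 of 8 in Lgr5neg cells (0.328%). Notch3 in Lgr5low and Notch3 and Jag2 in Lgr5neg cells had too few counts to be tested. At an unadjusted p under 0.05 there was 1 member in Lgr5high (Hes1), 2 in Lgr5med (Notch1 and Gfi1), 0 in Lgr5low and 2 in Lgr5neg cells (Notch1 and Atoh1), and DESeq2 called 1, Gfi1 in Lgr5med cells.

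Notch1 had a positive estimate in each population, of 0.21 in Lgr5high (95% interval -0.02 to 0.45, adjusted p = 0.275 by edgeR), 0.35 in Lgr5med (0.01 to 0.69, adjusted p = 0.189), 0.37 in Lgr5low (-0.08 to 0.82, adjusted p = 0.471) and 0.83 in Lgr5neg cells (0.18 to 1.48, adjusted p = 0.330). Its NRG1 and PBS libraries did not overlap in Lgr5high cells, as for 27.0% of all genes tested, nor in Lgr5neg cells, as for 15.9%. Without Lgr5med PBS replicate 1, the library with the highest Notch1 and lowest goblet sum of its group, the Lgr5med value was 0.55 (adjusted p = 0.0362). The stem cell marker sum moved with Notch1 in some populations. In Lgr5low cells it was 1053, 1580 and 1067 CPM under NRG1 against 696, 707 and 751 CPM under PBS, without overlap, and in Lgr5med cells 2915, 2989 and 2433 CPM against 2525, 1431 and 1541 CPM. In Lgr5high cells it was 4588, 4206 and 4089 CPM under NRG1 against 5445, 3906 and 4962 CPM, and in Lgr5neg cells 67.6, 88.7 and 87.4 CPM against 103, 109 and 116 CPM, where the NRG1 values were the lower. Its 11 markers had counts in all 24 libraries, except Gkn3 and Tnfrsf19, at 0 in 1 library each, and its part in the Notch1 values was not tested. Notch2 had estimates between -0.26 and 0.03, and the interval in Lgr5high cells ran from -0.42 to 0.08.

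Hes1 had a negative estimate in each population. It was -0.45 in Lgr5high (95% interval -0.79 to -0.11, adjusted p = 0.104 by edgeR), -0.33 in Lgr5med (-0.72 to 0.05, adjusted p = 0.272), -0.28 in Lgr5low (-0.67 to 0.11, adjusted p = 0.533) and -0.59 in Lgr5neg cells (-1.19 to 0.02, adjusted p = 0.480). Without the filter on low counts the Lgr5high value was called by edgeR, at -0.49 (adjusted p = 0.00807), in a fit that called 1428 of 23366 genes. The NRG1 and PBS libraries overlapped in all 4 populations. The 4 populations come from the same 6 mice, so that the shared sign of these estimates is not 4 separate observations, for Hes1 or for Notch1.

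For Gfi1 in Lgr5med cells the estimate was -0.96 (95% interval -1.72 to -0.21, adjusted p = 0.106 by edgeR), with 3.18, 4.82 and 6.38 CPM under NRG1 and 5.01, 12.1 and 11.3 CPM under PBS. The NRG1 values lay below PBS replicates 2 and 3 and around replicate 1. Without that Lgr5med PBS replicate 1 the value was -1.26 (adjusted p = 0.0114), and Dll1 was then called too, at -0.58 (adjusted p = 0.0186) from -0.36 with all libraries (interval -0.76 to 0.04). The goblet marker sum in Lgr5med cells was 4944, 6519 and 11569 CPM under NRG1 against 5958, 14649 and 16899 CPM under PBS, and its part in the Gfi1 and Dll1 values was not tested. Atoh1 in the same cells differed by -0.02, with an interval from -1.15 to 1.10.

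In Lgr5neg cells Atoh1 was at 2.39, 4.37 and 6.11 CPM under NRG1 and at 8.39, 11.5 and 7.45 CPM under PBS. The groups did not overlap, at a log2 difference of -1.09 (95% interval -1.80 to -0.38, adjusted p = 0.215 by edgeR). Without the filter on low counts it was called at the same rounded value (adjusted p = 0.0281). The replicate number was also used as a block, a pairing taken only from libraries of the same number deviating together in this population. With it the value was -1.14 (adjusted p = 0.0104 by edgeR), in a fit that called 7.05% of all genes against 0.328% without the block. The pairing was picked from the libraries it was then used to test, so this value is not separate evidence. Dll1 (-0.66), Dll4 (-0.66), Gfi1 (-0.78) and Hes1 (-0.59) had negative estimates there as well, none of them called. The goblet sum moved with Atoh1, at 1456, 2689 and 4048 CPM under NRG1 and 4999, 6848 and 5497 CPM under PBS, and its part was not tested. The immune marker sum ranged from 67.3 to 428 CPM under NRG1 and from 116 to 219 CPM under PBS.

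**Figure D5:**
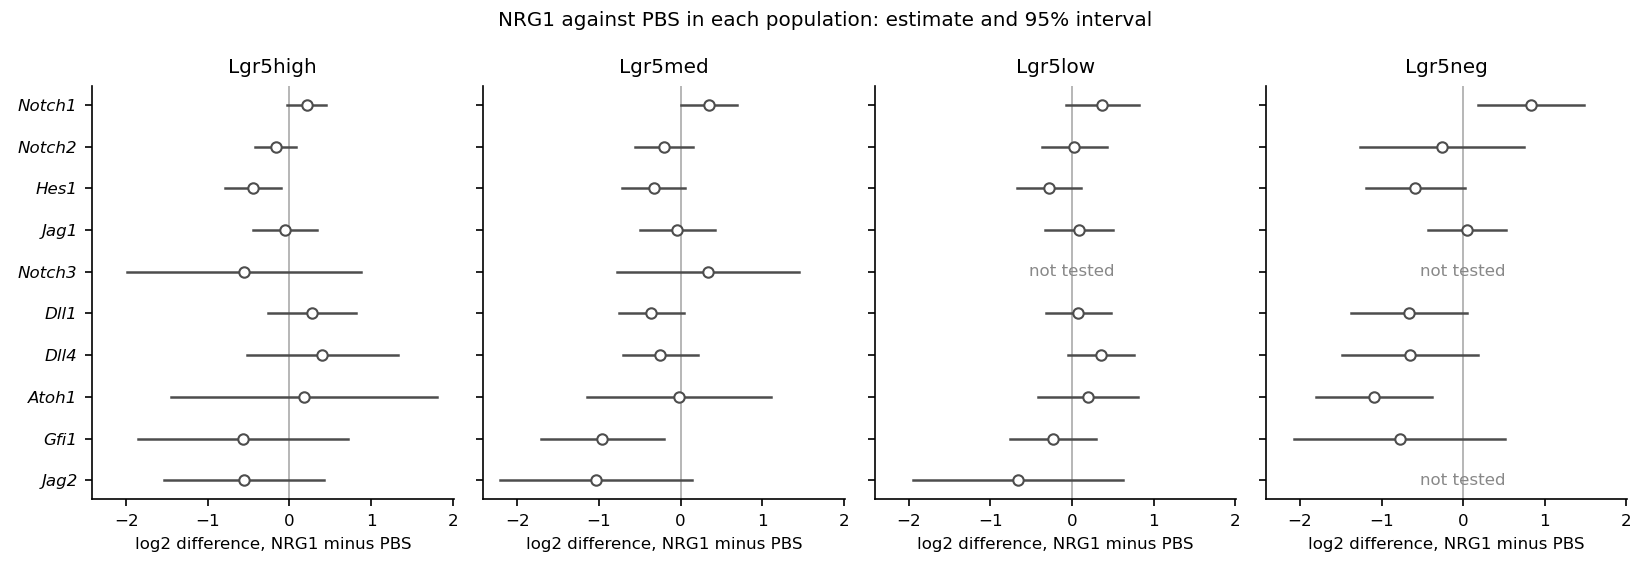
Log2 difference between NRG1 and PBS for each member in each population, with its 95% interval. No member was called, intervals of Notch1 lay mostly above 0 and those of Hes1 mostly below it, and in Lgr5high cells the intervals of Atoh1, Gfi1, Jag2 and Notch3 were the widest.

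A fit of all 24 libraries with an interaction term tested whether populations differed in their NRG1 response. No member was called for Lgr5med or Lgr5low against Lgr5high cells, where 0 genes of 15045 were called (0.0%), nor for Lgr5neg against Lgr5high cells, where 8 genes (0.0532%) were. DESeq2 called no member in any of the 3, and at an unadjusted p under 0.05 edgeR gave 3, all for Lgr5neg against Lgr5high cells. These were Notch1 at 0.63 (95% interval 0.02 to 1.23, adjusted p = 0.553), Dll1 at -0.94 (-1.85 to -0.03, adjusted p = 0.555) and Dll4 at -1.06 (-2.11 to -0.01, adjusted p = 0.567). The interaction of Atoh1 was -1.25 (-2.83 to 0.32, adjusted p = 0.686). Differences between NRG1 and PBS mice in how far Lgr5high and Lgr5neg cells lie apart are these same contrasts.

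Among the other pathway genes NRG1 called 6 of 66 tested in Lgr5high cells, 4 of 73 in Lgr5med, 0 of 74 in Lgr5low and 0 of 58 in Lgr5neg cells. In Lgr5high cells Psen2, a catalytic subunit of gamma-secretase, fell from 4.60 ± 0.692 to 2.03 ± 0.335 CPM (log2 difference -1.15, adjusted p = 0.0134) and Psenen, another subunit of that enzyme, rose from 22.9 ± 3.78 to 34.9 ± 5.79 CPM (0.63, adjusted p = 0.0195). Neurl1b, a Neuralized ubiquitin ligase for ligands, rose by 0.58 (adjusted p = 0.0142), the coactivators Maml1 and Ep300 by 0.64 (adjusted p = 0.0146) and 0.43 (adjusted p = 0.0441), and the secretory factor Foxa1 by 0.64 (adjusted p = 0.00863). In Lgr5med cells Psenen (0.53, adjusted p = 0.0345) and Nedd4, a ubiquitin ligase (0.53, adjusted p = 0.0356), rose and the corepressor Aes fell (-0.61, adjusted p = 0.00886). The fourth call in Lgr5med cells was Maml2, named after its values were seen, at 0.390 ± 0.120 CPM under NRG1 and 1.56 ± 0.811 CPM under PBS (adjusted p = 0.0283). The shares called, in lists drawn up with earlier results of these data known, lie near the 7.33% and 9.55% of all genes.

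Genes with the most similar pattern over the 24 libraries were sought among 9139 genes, by Pearson's r of log2 CPM. For Hes1 they were Tbl1x (r = 0.971), Zfp703 (0.966) and Nfic (0.961), and for Notch1 they were Trp53 (0.985), Prom1 (0.985) and Olfm4 (0.984), the last a stem cell marker. The nearest to Atoh1 were Ern2 (0.981), Dpysl2 (0.973) and Gcnt3 (0.971), and the nearest to Dll1 were Cracr2a (0.948), Mptx1 (0.935) and Dpysl3 (0.931). The 24 points share 6 mice and 4 populations, and the spread between populations carries most of each r, so these values are descriptions.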

How the data were processed

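The authors deposited 1 table of read counts per gene symbol, whole numbers that sum to a different total in each library. STAR, featureCounts and GRCm38 are named in the submitters' processing notes. Their versions, the annotation release and the strand setting are not given in the sources used here. Per the labels' protocols, a NuGEN Ovation kit took 15 ng of RNA per library, and 76 nt single ends were read. Coordinates and exon lengths are from GENCODE vM21 on GRCm38.

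Tests were run with edgeR 4.0.16 in R 4.3.3, as robust quasi-likelihood fits on TMM-scaled libraries. Genes entered through edgeR's own filter (count of 10, total of 15), p-values were adjusted by Benjamini-Hochberg over every gene that entered, and an adjusted p under 0.05 was a call. SE is the absolute log2 difference over the square root of F. CPM values are scaled over all 24 libraries. The scripts were tested on simulated data. Alternatives were RLE scaling, DESeq2 1.42.0, no filter, no mitochondrial ribosomal RNA, other sample sets, blocks, mice aged 15 weeks alone, and leaving out each library. Promoter windows came from RefSeq, GRCm38.p6, for 9 members, all but Hes1.

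Populations pair by animal. Deviations from the group means were correlated between 2 populations of the same treatment. Those of libraries of 1 mouse correlated at -0.00375 to 0.287, and those of different mice at 0.1 or less. NRG1 and PBS replicate numbers name different mice. Yet their same-numbered libraries within a population correlated at 0.0703 to 0.222, so a correlation over 0.1 is not particular to libraries of 1 animal. All 3 correlations of same-numbered libraries were over 0.1 in Lgr5low (0.132 to 0.172) and Lgr5neg (0.103 to 0.175) but not in Lgr5high or Lgr5med cells, so the block stands beside results only in the former 2.

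The members, the lists and the rule for naming other genes were chosen with earlier results of these data known. Per comparison and list that rule took up to 2 called genes each way with the largest change, among those averaging log2 CPM 1 or more, and the 3 genes most like Hes1, Atoh1, Dll1 and Notch1 among those averaging 2 or more. All 43280 symbols and all 24 libraries were used. Replicates are separate mice. Floors cover counting error only. A call in the cleavage list between Lgr5high and Lgr5med cells of PBS mice is not reported here.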

Additional observations from a re-analysis of the deposited data

How the results depend on the processing

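Over 2601 alternative values of single members no called difference changed sign. Leaving out 1 library kept the side of the threshold in 1242 values, ended 50 calls and made 10, and the other alternatives kept it in 1238, ended 27 and made 34. Sign changes numbered 101, all in values called in neither fit. For NRG1 against PBS, members called went from 0 to 1 without the filter on low counts in Lgr5high, Lgr5med and Lgr5neg cells. These were Hes1 in Lgr5high (-0.49, adjusted p = 0.00807), Gfi1 in Lgr5med (-0.97, adjusted p = 0.000756) and Atoh1 in Lgr5neg cells (-1.09, adjusted p = 0.0281). DESeq2 also called 1 in Lgr5med cells, Gfi1. With the replicate block the members called numbered 2 in Lgr5med (Notch1 at 0.37, adjusted p = 0.0363, and Gfi1 at -0.93, adjusted p = 0.00305) and 1 in Lgr5neg cells. Same-numbered correlations in Lgr5med cells were 0.205, 0.0714 and 0.153, so the numbers there were not taken as pairs. Without the filter the Lgr5neg minus Lgr5high interaction had 1 (Atoh1). In PBS mice, Lgr5high against Lgr5med gave 5 members, 0 with the mice aged 15 weeks alone and 2 with only the 6 libraries compared, and Lgr5high against Lgr5low 3 of 7 with the older mice alone. Lgr5med against Lgr5low there gave 1, and 2 by RLE, DESeq2 or only 6 libraries, 3 without the filter or with mice as a replicate block, and 0 with the older mice. In NRG1 mice the older mice alone gave 0 for both Lgr5high against Lgr5med and Lgr5med against Lgr5low, and the latter had 3 by DESeq2 or only 6 libraries, 2 without the filter and 4 with the mouse block. Leaving out 1 library in turn gave 0 to 3 members for NRG1 in Lgr5med. It gave 1 to 5 for Lgr5high against Lgr5med and 0 to 2 for Lgr5med against Lgr5low in PBS mice, and 0 to 4 and 0 to 1 in NRG1 mice. The mouse block changed no other call than those given beside the results. Apart from the use of fewer libraries or another gene set, the cause of these changes was not tested. Over all genes, calls for NRG1 ranged over the alternatives, leave-one-out aside, from 480 to 1428 in Lgr5high (976 as reported), 425 to 2333 in Lgr5med (1279), 11 to 573 in Lgr5low (59) and 0 to 839 in Lgr5neg cells (39). Leaving out 1 library in turn, these went from 491 to 1186, 422 to 1118, 1 to 72 and 0 to 90. For Lgr5high against Lgr5med they ranged from 99 to 1755 in PBS (1302) and 68 to 1059 in NRG1 mice (3.11% of genes as reported), for Lgr5med against Lgr5low from 307 to 1523 (1078) and 91 to 1268 (675), and for Lgr5high against Lgr5low from 2817 to 5288 (4713) and 1886 to 4227 (3436). Without 1 library, Lgr5high against Lgr5med went from 634 to 1425 in PBS and 126 to 487 in NRG1 mice, and Lgr5med against Lgr5low from 464 to 1004 and 204 to 738. The interaction counts reached 17, 35 and 150. Depth limits Notch3 and Jag2, whose counts stayed under 35 in each library, and 3 libraries per group limit the rest.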
